A study of Mus musculus with 12 samples.

Results

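Nbl1 and 9 other genes of bone morphogenetic protein (BMP) signalling were examined in tongue epithelium from Langerin-DTR mice that were given diphtheria toxin (DT, n = 6) or phosphate-buffered saline (PBS, n = 6). The 10 genes were chosen by symbol from 49164 genes with counts. They are the antagonists Nbl1, Grem1 and Fst, the ligands Bmp2 and Bmp4, the target genes Id1, Id2 and Id3, and the inhibitory Smad genes Smad6 and Smad7. The list was drawn up around the higher level of Nbl1 in DT, so the DT against PBS values of all 10 are a description. Where one of them is said to lie past the threshold of the fit across all genes, that places it among all genes and is no independent test of it.

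In Langerin-DTR mice, which all 12 samples came from, the receptor for diphtheria toxin is expressed under langerin (Cd207), so that langerin-positive cells die when the toxin is given. DT or PBS was injected, per the labels, 2 times per week from 2 weeks of age to adulthood. Other alleles, the strain, the adult age and the sex were not stated in the labels, nor whether each sample was 1 mouse, so the spread between samples may be in part technical. The study's stated interest was the innervation of the oral mucosa. Cd207 stood at 0.0189 ± 0.0231 CPM in DT and 2.80 ± 0.436 CPM in PBS (SD, n = 6 each), with 4 counts in all in DT against 429 in PBS. Levels are in CPM, the count of a gene relative to its library size after TMM scaling (a trimmed mean of ratios that brings the bulk of genes to the same level in each library). Total counts per sample were 26181070 to 34333949 in DT and 21226436 to 30282813 in PBS, and 3 counts, the floor of detection in a sample, corresponded to 0.0813 to 0.143 CPM. Keratinocyte markers were abundant, with Krt14 at 3860 ± 239 CPM in DT and 4164 ± 364 CPM in PBS, and Krt13 at 56428 ± 6014 CPM in DT and 64306 ± 6018 CPM in PBS.

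BMPs are secreted ligands of the TGF-beta family. They bind paired type I and type II receptors, which phosphorylate Smad1, Smad5 and Smad9, and these enter the nucleus with Smad4 to switch on targets such as the Id genes. Secreted antagonists hold the ligands away from the receptors, and Smad6 and Smad7, themselves targets of the pathway, damp it inside the cell. In the tongue, BMPs and their antagonists are known for patterning the taste papillae and the epithelium around them.

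The promoters of 6 of the listed genes (Nbl1, Grem1, Bmp4, Id2, Id3 and Smad6) were matched in RefSeq sequences of build GRCm38.p6; the counts themselves were made on GRCm39. The 250 bases before the RefSeq start are printed for Nbl1 and Id3, whose groups did not overlap, for Id2, and for Bmp4, whose fold change had the opposite sign. They lie at chr4:139092971-139093220, minus strand (Nbl1), chr4:136143572-136143821, plus strand (Id3), chr12:25096093-25096342, minus strand (Id2) and chr14:46390670-46390919, minus strand (Bmp4). Capitals mark GGCGCC, a site that BMP-activated Smads can bind; it reads the same on both strands.
Nbl1: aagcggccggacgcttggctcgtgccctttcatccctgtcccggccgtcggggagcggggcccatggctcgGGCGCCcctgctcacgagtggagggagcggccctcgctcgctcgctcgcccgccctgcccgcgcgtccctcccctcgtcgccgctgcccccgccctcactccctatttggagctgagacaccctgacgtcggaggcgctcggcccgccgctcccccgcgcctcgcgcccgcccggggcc
Id3: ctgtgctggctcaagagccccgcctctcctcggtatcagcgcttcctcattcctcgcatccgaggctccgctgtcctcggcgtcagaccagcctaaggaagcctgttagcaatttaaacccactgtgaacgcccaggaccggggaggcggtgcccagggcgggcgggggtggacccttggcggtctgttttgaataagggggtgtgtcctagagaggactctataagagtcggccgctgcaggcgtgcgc
Id2: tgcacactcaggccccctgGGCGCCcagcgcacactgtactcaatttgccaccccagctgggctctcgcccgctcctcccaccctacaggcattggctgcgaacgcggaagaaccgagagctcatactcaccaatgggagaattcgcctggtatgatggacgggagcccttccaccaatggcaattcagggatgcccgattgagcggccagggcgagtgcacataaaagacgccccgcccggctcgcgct
Bmp4: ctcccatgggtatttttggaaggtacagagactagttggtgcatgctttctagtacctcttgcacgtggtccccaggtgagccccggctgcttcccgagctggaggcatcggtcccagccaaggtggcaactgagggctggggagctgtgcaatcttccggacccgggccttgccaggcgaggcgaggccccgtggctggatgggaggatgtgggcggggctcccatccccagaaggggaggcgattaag
Among these 4 sequences GGCGCC occurred 1 time in Nbl1 and 1 time in Id2. It was also present in Grem1, and 9.59% of all 32851 promoter windows of the same length held it. GTCTAGAC, a palindromic Smad site, was found in 0.167% of the windows and in 0 of the 6 listed ones. The Nbl1 window was 77.6% G and C, against 62.8% in Id3, 62.8% in Id2, 63.2% in Bmp4 and a median of 52.4% over all windows. A match describes the letters and not binding.

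Nbl1 was higher in DT than in PBS, and of the genes that BMP signals induce, Id3 and Id2 had positive fold changes too. Id1, Smad6 and Smad7, also induced by BMP signals, lay close to 0, as did Fst. The ligands Bmp2 and Bmp4 had negative fold changes. Of the 10 listed genes 9 were abundant enough to be tested across all genes, and Nbl1 and Id3 were past the threshold (adjusted p of 0.05 in edgeR, a test for count data), both higher in DT. That is 22.2% of the tested members, beside 1.30% of all 14231 genes tested (185 genes) and 0.443% that were higher (63 genes). With DESeq2, another count model, Id2 was past the threshold as well, beside 4.19% of all genes. As the comparison had served to choose the list, nothing is read from that share. The median log2 fold change of DT over PBS was 0.00 over the 9 genes and 0.01 over all tested genes, and fold changes were above 0 for 5 of 9 and for 51.6% of all.

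Nbl1 (ENSMUSG00000041120) encodes DAN, a secreted protein of the cystine-knot family that binds BMPs. Its level was lowest at 20.3, median 21.7 and highest at 27.7 CPM in DT, against 15.3, 16.6 and 17.3 CPM in PBS. The groups did not overlap: each of the 6 DT samples lay above the highest PBS sample, and DT 5 was the highest of all. The means were 22.7 ± 2.69 CPM in DT and 16.4 ± 0.803 CPM in PBS (SD, n = 6 each), a log2 fold change of 0.47 ± 0.07 (SE, 95% interval from 0.31 to 0.63), or 38.4% more in DT. The coefficient of variation was 11.8% in DT, or 5.77% without DT 5, and 4.89% in PBS. Leaving out 1 sample gave log2 fold changes of 0.40 (without DT 5) to 0.50. In the GRCm38 annotation no other gene overlapped Nbl1.

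Grem1, the gremlin gene of the same cystine-knot family, was all but missing. It had 2 counts over the 6 DT samples and 1 over the 6 PBS samples, under the floor of 3 counts in each of the 12, so no fold change is given. Fst encodes follistatin, which binds activins tightly and some BMPs more weakly. Its level ran from 7.10 through a median of 11.3 to 14.8 CPM in DT, and from 9.34 through 12 to 15.02 CPM in PBS. The groups overlapped almost fully, with DT 4 as the sole sample below the PBS range, and the log2 fold change was -0.09 ± 0.15 (SE, 95% interval from of -0.42 to 0.23). Fst was the most variable listed gene within groups, with an SD of 0.32 on the log2 scale, against 0.17 for the median tested gene.

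**Figure D1:**
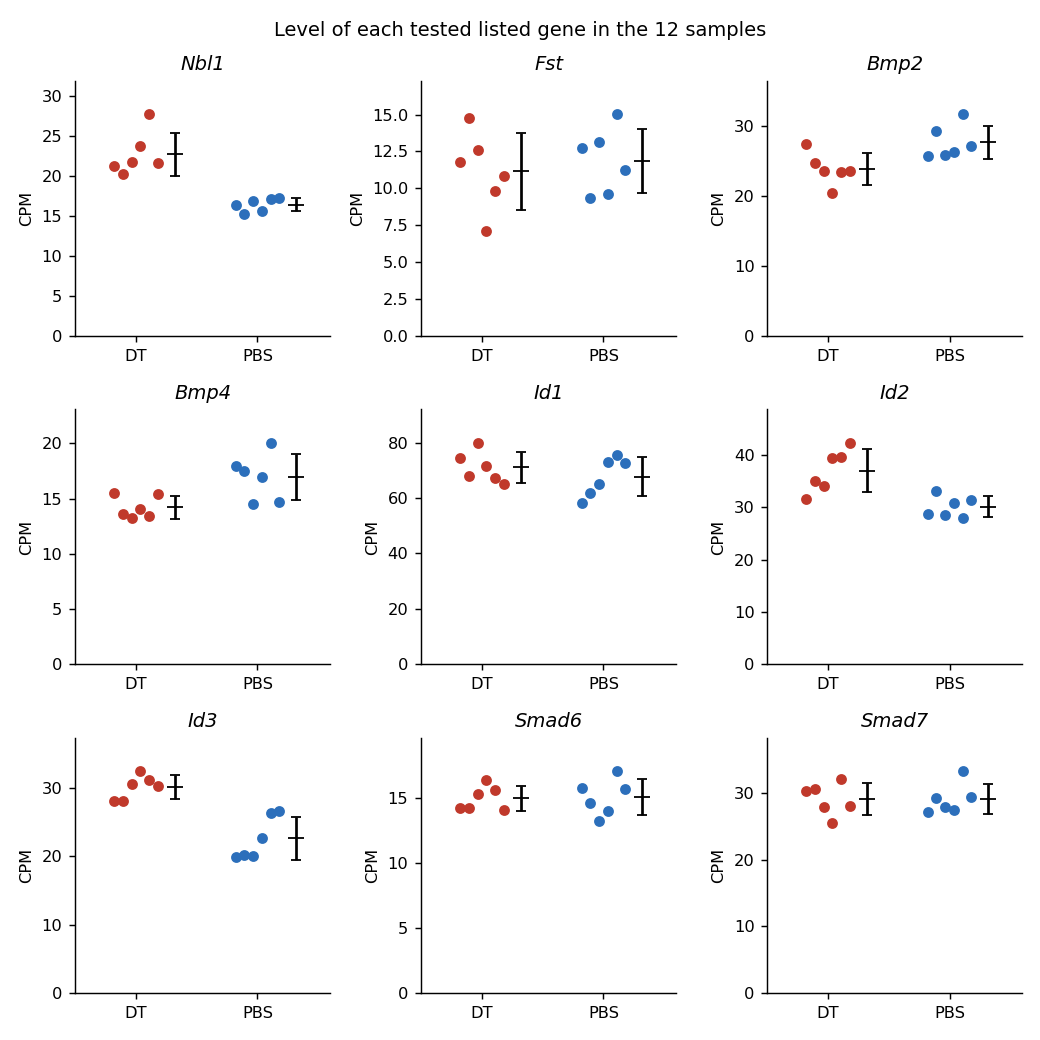
Level of the 9 tested listed genes (y axis, CPM on TMM-scaled libraries) in 6 DT samples (left, red) and 6 PBS samples (right, blue). Each point is 1 sample and the bar beside it the mean ± SD; the DT points lie wholly above the PBS points for Nbl1 (20.3 to 27.7 against 15.3 to 17.3 CPM) and for Id3.

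Bmp2 and Bmp4, closely related ligands made in oral epithelium and the connective tissue under it, were both lower in most DT samples without a full separation of the groups. Bmp2 had its lowest, median and highest level at 20.4, 23.5 and 27.3 CPM in DT, and at 25.7, 26.7 and 31.6 CPM in PBS. In 5 of 6 DT samples it was below the lowest PBS sample; DT 1 was the exception. On the log2 scale DT minus PBS was -0.22 ± 0.07 (SE, 95% interval from -0.37 to -0.06). For Bmp4 the values were 13.3, 13.8 and 15.5 CPM in DT, and 14.5, 17.3 and 20.1 CPM in PBS. In 4 of 6 DT samples Bmp4 was below the PBS range, and 0 of 6 were above the PBS median, at a log2 fold change of -0.25 ± 0.08 (SE, 95% interval from -0.43 to -0.08). In the annotation Bmp4 overlapped 2 genes of the opposite strand, Gm15217 with 0 counts and Gm15222 with 209 counts over all samples, and whether counting used the strand was not stated in the sources used here.

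The Id proteins lack a DNA-binding domain and block basic helix-loop-helix factors by pairing with them. Id3 had 28.1, 30.5 and 32.5 CPM (lowest, median, highest) in DT, against 19.9, 21.5 and 26.7 CPM in PBS. The groups did not overlap, and PBS 5 and PBS 6, at 26.4 and 26.7 CPM, came nearest to DT. This gave a log2 fold change of 0.41 ± 0.08 (SE, 95% interval from 0.24 to 0.58), or 32.9% more in DT. Of the 9 tested listed genes 2 thus had groups without overlap, beside 2.21% of all tested genes (0.836% with DT above). Id3 was no longer past the threshold without DT 4, DT 5, PBS 1, PBS 2 or PBS 3, while its log2 fold change stayed between 0.38 and 0.47 over the 12 fits that left out 1 sample.

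Id2 had 31.5, 37.2 and 42.3 CPM (lowest, median, highest) in DT, against 27.8, 29.8 and 33.2 CPM in PBS. In 5 of 6 DT samples it was above the highest PBS sample, PBS 2, and the log2 fold change came to 0.30 ± 0.07 (SE, 95% interval from 0.14 to 0.45). Id2 was not past the threshold with edgeR; it was without DT 1 (0.34), with DESeq2 (0.29) and with 4 other settings. Id1, by far the most abundant of the 3, had 64.9, 69.8 and 79.9 CPM in DT, against 58.2, 68.8 and 75.6 CPM in PBS. The groups overlapped, and its log2 fold change was 0.07 ± 0.07 (SE; with a 95% interval of -0.09 to 0.22). Within PBS, Id1 and Id3 were both lower in PBS 1, PBS 2 and PBS 3 than in the other 3 samples.

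Smad6, which acts mainly on BMP receptors, and Smad7, which acts on both TGF-beta and BMP receptors, were at much the same level in the groups. Smad6 had 14.1, 14.8 and 16.4 CPM in DT, and 13.2, 15.1 and 17.1 CPM in PBS. It had a log2 fold change of -0.01 ± 0.07 (SE, 95% interval from -0.16 to 0.14). Smad7 had 25.4, 29.2 and 32.1 CPM in DT, and 27.1, 28.6 and 33.3 CPM in PBS, with PBS 5 highest. Its log2 fold change was 0.00 ± 0.07 (SE, 95% interval from -0.14 to 0.14). Both intervals leave room for changes of up to about that size in either direction. In bulk samples such as these, fewer cells of a type and less RNA per cell cannot be told apart.

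Levels of different genes were set side by side per kilobase of exon (RPKM, with exon lengths of the GRCm38 annotation). The length counted all annotated exons of a gene together, which can exceed that of the transcript expressed. Close ranks may therefore not be the order of transcript levels. In DT the order of mean length-scaled levels was Id1 (61.2 ± 4.76 RPKM), Id3 (16.8 ± 0.989), Id2 (15.2 ± 1.67), Nbl1 (11.2 ± 1.32), Bmp2 (6.70 ± 0.627), Smad7 (6.44 ± 0.531), Bmp4 (6.32 ± 0.444), Smad6 (4.68 ± 0.294) and Fst (2.43 ± 0.568), each as mean ± SD over 6 samples. In PBS the order was Id1 (58.4 ± 6.04 RPKM), Id3 (12.6 ± 1.77), Id2 (12.3 ± 0.836), Nbl1 (8.08 ± 0.395), Bmp2 (7.77 ± 0.662), Bmp4 (7.55 ± 0.934), Smad7 (6.43 ± 0.501), Smad6 (4.70 ± 0.434) and Fst (2.58 ± 0.478). Id1 stood apart from all others in both groups. Nbl1 lay at 9.97 to 13.6 RPKM in DT, clear of Bmp2 at 5.74 to 7.68 RPKM. In PBS, Nbl1 (7.53 to 8.50 RPKM), Bmp2 (7.23 to 8.89) and Bmp4 (6.46 to 8.93) had ranges that overlapped. The ranges of Id3 and Id2 overlapped in both groups, and those of Id2 and Nbl1 in DT alone, though Id2 was above Nbl1 within each of the 12 samples. The ranges of Bmp2, Bmp4 and Smad7 overlapped in both groups. Within samples Bmp2 was above Smad7 in 5 of 6 DT and 6 of 6 PBS samples, and Bmp4 was above Smad7 in 3 of 6 DT and 6 of 6 PBS samples. Bmp2 was above Bmp4 in 4 of 6 DT and 3 of 6 PBS samples.

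**Figure D2:**
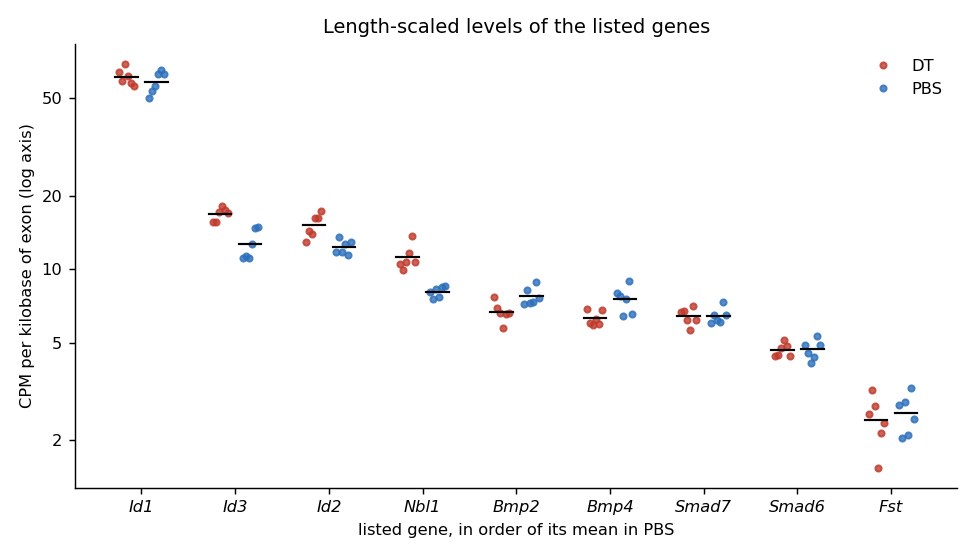
Length-scaled level (y axis, CPM per kilobase of exon, log axis) of the 9 tested listed genes in the order of their PBS mean, with DT samples in red to the left of PBS samples in blue and black lines at the means. Id1 is highest (61.2 in DT, 58.4 in PBS), and the Nbl1 points lie above those of Bmp2 and Bmp4 in DT and overlap them in PBS.

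The rest of the pathway was described with a list of 66 further genes. Of these 44 were tested: 0 rose, 1 fell (Tob1) and 43 did not pass. The share past the threshold was 2.27%, beside 1.30% of all tested genes, and the median log2 fold change was 0.02, beside 0.01. At an unadjusted p under 0.05 there were 13 of 44, a larger share than among all tested genes (2188 of 14231, or 15.4%). Whether the larger share is more than chance was not tested. The 22 genes that were too low to test had at most 77 counts over the 12 samples; Chrd, Bmp5 and Gdf5 were among them. In each role group the genes past the threshold and the 3 most abundant are named, and any other is said to be chosen after its value was seen.

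Tob1, an antiproliferative protein that can repress BMP Smads, had 216, 235 and 267 CPM (lowest, median, highest) in DT, against 264, 297 and 306 CPM in PBS. In 5 of 6 DT samples it lay below the lowest PBS sample. The log2 fold change was -0.30 ± 0.06 (SE; edgeR adjusted p = 0.0255). The call was lost without DT 3, DT 5, DT 6, PBS 1, PBS 2 or PBS 3, with libraries scaled by size alone and with the replicate block (replicate number as a term), and adjusted p ran from 0.000145 to 0.163 over the alternatives. Of the 9 tested genes among the Smads and their regulators, the other 8 did not pass, and of all 9 the fold change was above 0 for 4 and below 0 for 5. Among the 8 were the co-repressor gene Ski (-0.12, adjusted p = 0.278) and Smad5, which carries the BMP signal (0.08, adjusted p = 0.758).

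Of 6 tested further ligands 0 passed, with 3 fold changes above 0 and 3 below. Those below were Bmp7 and the activin subunit genes Inhba (-0.03, adjusted p = 0.981) and Inhbb (-0.27, adjusted p = 0.458). The subunit genes, which do not encode BMPs, were named after their values were seen. Bmp7, which is expressed in many epithelia, had 45.2, 49.95 and 51.9 CPM in DT, against 52.2, 56.6 and 65.8 CPM in PBS. Its groups did not overlap, the single case of this kind among the 44 genes (1.37% of all tested genes had DT wholly below PBS), and the log2 fold change was -0.22 (95% interval -0.35 to -0.10, edgeR adjusted p = 0.0799; DESeq2 adjusted p = 0.0139). Bmp3, which opposes other BMPs, stood at 0.19 (adjusted p = 0.647), and Bmp6 at 0.02 (adjusted p = 0.968).

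Of 8 further secreted or membrane-bound antagonists 0 passed, with 5 fold changes above 0 and 3 below. Sostdc1, an inhibitor of BMP and Wnt signals in teeth and other epithelia and a cystine-knot relative of Nbl1, had 15.97, 19.6 and 27.9 CPM in DT, against 15.3, 17.5 and 20.6 CPM in PBS (log2 fold change 0.23, edgeR adjusted p = 0.383). Crim1, a membrane protein that binds BMPs, stood at 0.16 (adjusted p = 0.310). Twsg1, a partner of chordin, stood at -0.17 (adjusted p = 0.153 with edgeR and 0.0473 with DESeq2).

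Of 11 tested receptors and coreceptors 0 passed, with 6 fold changes above 0, 5 below and a median of 0.03. Among the 3 most abundant the log2 fold change was -0.11 for the type I receptor gene Bmpr1a (adjusted p = 0.540), -0.11 for the type II receptor gene Bmpr2 (adjusted p = 0.495) and -0.09 for Bambi, a decoy receptor (adjusted p = 0.773). The highest was that of the coreceptor gene Tgfbr3 (0.22, adjusted p = 0.200) and the lowest that of the type I receptor gene Acvr1 (-0.15, adjusted p = 0.219), both chosen after their values were seen.

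Of 6 tested further targets 0 passed, with 4 fold changes above 0, 2 below and a median of 0.21. The 3 highest, chosen after their values were seen, belonged to genes of transcription factors: Atoh8 (0.51, adjusted p = 0.325), Hey1 (0.45, adjusted p = 0.148) and Msx1 (0.28, adjusted p = 0.358). Hey1 had 1.88, 2.78 and 3.41 CPM in DT, against 1.66, 1.959 and 2.47 CPM in PBS, with 5 of 6 DT samples above the highest PBS sample. Among the 3 most abundant, Id4 stood at 0.14 (adjusted p = 0.452), and the homeobox genes Msx2 and Dlx3 at -0.15 (adjusted p = 0.394) and -0.17 (adjusted p = 0.237). Of 4 tested processing proteases 0 passed, with 1 fold change above 0 and 3 below. Pcsk6 stood at -0.19 (adjusted p = 0.254) and Furin at -0.12 (adjusted p = 0.450), both convertases that cut pro-proteins. Bmp1, a protease that cleaves chordin and is not a BMP ligand despite its name, stood at -0.16 (adjusted p = 0.342).

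**Figure D3:**
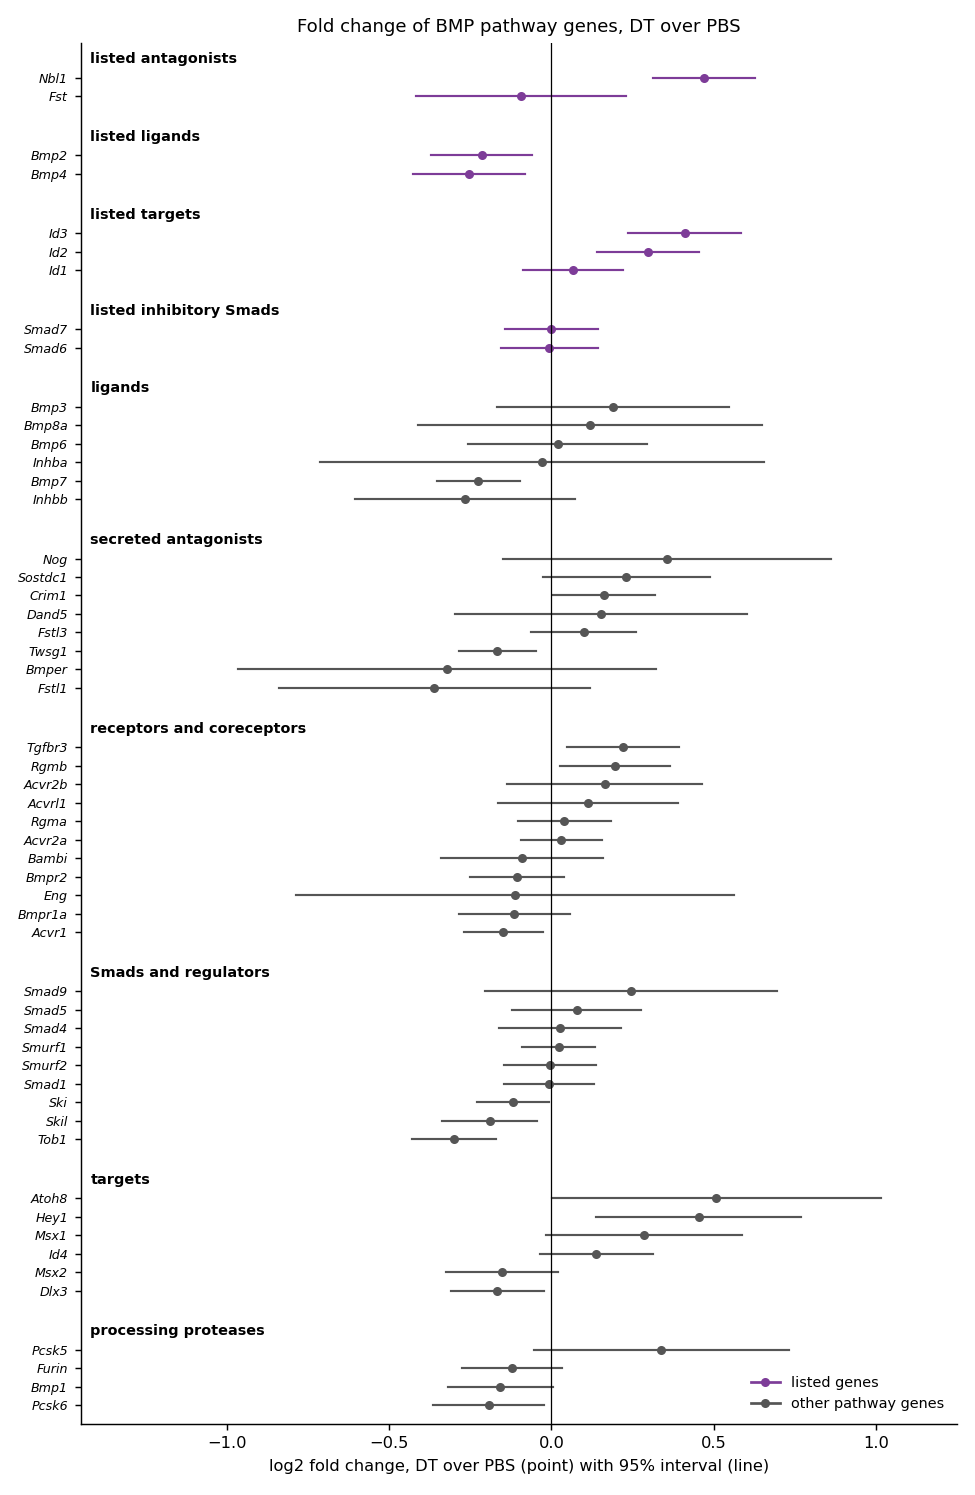
Log2 fold change of DT over PBS (x axis; points, with 95% intervals as lines) for the 9 tested listed genes (purple) and 44 other pathway genes (grey), by role. Right of 0 lie Nbl1 (0.47), Id3 (0.41) and Id2 (0.30), and among the other genes Atoh8 (0.51) and Hey1 (0.45). Atoh8 and Hey1 were chosen after their values were seen. Left of 0 lie Tob1 (-0.30), Bmp4 (-0.25), Bmp2 (-0.22) and Bmp7 (-0.22), with most other intervals across 0.

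Variation within groups, which the choice of genes did not use, was described by the log2 level of each sample minus its group mean (12 samples, which share library and scaling). Over the 36 pairs of tested listed genes the Pearson correlation had a median of 0.15 and was positive for 24 and negative for 12. The highest value was 0.81 between Bmp2 and Smad7 (Spearman 0.73), followed by Id3 with Smad6 (0.66, Spearman 0.52) and Id1 with Id3 (0.64, Spearman 0.56). The lowest was -0.66 between Fst and Id2 (Spearman -0.71). Nbl1 was at 0.48 with Smad6 (Spearman 0.55), 0.46 with Id3 (Spearman 0.61), -0.26 with Bmp2 (Spearman -0.48) and -0.23 with Bmp4 (Spearman -0.34). Id2 was at -0.40 with Id1 and 0.19 with Id3, so the 3 Id genes did not vary as a block.

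**Figure D4:**
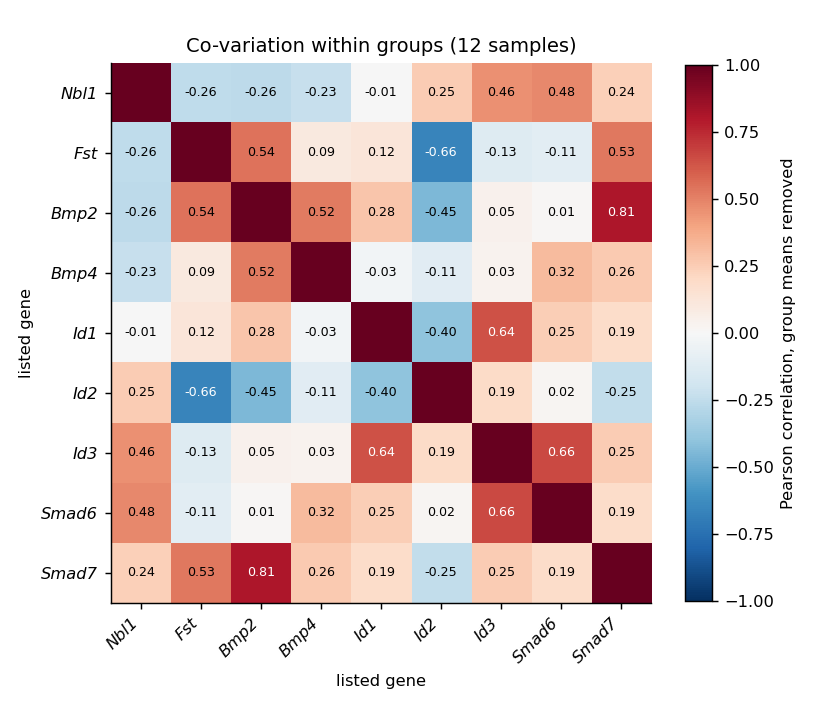
Pearson correlation of log2 CPM with group means removed, over 12 samples, for each pair of the 9 tested listed genes (both axes; colour from -1 in blue to 1 in red). Bmp2 with Smad7 is highest (0.81) and Fst with Id2 lowest (-0.66).

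Part of this variation lay along the main axis of the samples. The first principal component of the group-centred values held 31.5% of their variance. Its correlation was -0.83 with Id2 (Spearman -0.92), 0.71 with Fst, 0.70 with Id1 and 0.55 with Bmp2, against -0.17 with Nbl1 (Spearman -0.03) and 0.06 with Bmp4. In DT 1, DT 2 and DT 3, Id2 was at 31.5 to 35.0 CPM, and in DT 4, DT 5 and DT 6, at the other end of that axis, at 39.4 to 42.3 CPM. With the component as a covariate the log2 fold changes were 0.47 for Nbl1, 0.42 for Id3, 0.29 for Id2, -0.21 for Bmp2 and -0.25 for Bmp4. As the component came from values with group means removed, it could hardly move a fold change. These values are therefore no check on the differences between groups.

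Among 12358 genes averaging 1 CPM or more, the 5 whose deviations were most like those of Nbl1 were Pde4d (Pearson 0.89, Spearman 0.71), Pnrc1 (0.87, 0.92), Rab22a (0.87, 0.77), Zfp282 (0.87, 0.80) and Mepce (0.86, 0.87). Their log2 fold changes were -0.36 for Pde4d, 0.02 for Pnrc1, 0.02 for Rab22a, 0.00 for Zfp282 and 0.21 for Mepce, with edgeR adjusted p of 0.327, 0.885, 0.919, 1.00 and 0.0706 in that order. None of the 5 was a pathway gene, and none was past the threshold. They were picked as the highest of 12358 genes over 12 samples, and whether such values are more than chance was not tested. Much of the spread of Nbl1 in DT came from DT 5 (coefficient of variation 11.8%, or 5.77% without it). Of the listed genes Smad6 ranked highest in likeness to Nbl1 by Pearson correlation, at position 911, with Id3 at 1081. By Spearman correlation Id3 was ahead, at position 295, with Smad6 at 536.

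Markers of other cells in the preparation were summed per sample, 9 lists in all. Fibroblast markers, which bear on Nbl1 and Bmp4 since fibroblasts can express both, summed to 291 to 359 CPM in DT and 292 to 378 CPM in PBS (10 genes; two-sided exact permutation p = 0.424, adjusted over 9 lists 0.545). Dcn made up 90.2% of that sum in DT and 88.1% in PBS. All 8 tested markers had negative fold changes, and 0 of them passed. Without Dcn, left out after its share was seen, the sum was 31.3 ± 3.60 CPM in DT and 39.4 ± 4.47 CPM in PBS. Most of that remainder was Fbln1 (21.3 CPM in DT, 21.9 CPM in PBS). Lum and Dpt were too low to test. Among the tested markers Col1a1 (0.484 CPM in DT, 0.929 CPM in PBS), Col1a2 (0.482, 0.722), Col3a1 (0.772, 1.44) and Pdgfra (0.354, 0.398) were low too. Between these and Fbln1 in level was Col6a1, at 4.62 CPM in DT and 8.58 CPM in PBS (log2 fold change -0.89, edgeR adjusted p = 0.0802). Col6a2 was there too, at 3.04 CPM in DT and 4.91 CPM in PBS (-0.67, adjusted p = 0.236). The part of such cells in the Nbl1 and Bmp4 values was not tested.

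Schwann cell markers, 6 genes, summed to 6.94 to 8.94 CPM in DT and 6.13 to 7.89 CPM in PBS (exact permutation p = 0.0108, adjusted 0.0972). Nearly all of this was Ngfr, and Sox10, S100b and Cdh19 were near 0. Macrophage markers, 6 genes, summed to 16.3 to 25.1 CPM in DT and 23.3 to 28.5 CPM in PBS (exact permutation p = 0.0281, adjusted 0.126). Most of this sum was Cd68 (11.4 CPM in DT, 13.6 CPM in PBS) and Csf1r (7.74, 9.58), beside Lyz2 (1.04, 1.06) and C1qa (0.792, 0.896). Markers of differentiated tongue keratinocytes, 7 genes, summed to 108815 to 141360 CPM in DT and 130258 to 162909 CPM in PBS (exact permutation p = 0.0584, adjusted 0.175). The sums for Langerhans cells (exact permutation p = 0.104), endothelium (0.0996), skeletal muscle (0.260), basal keratinocytes (0.615) and smooth muscle with pericytes (0.976) did not pass either, and after adjustment 0 of 9 lists did. Single markers did: in the Langerhans list Cd207 and Mfge8 (55.0 CPM in DT, against 72.8 CPM in PBS; log2 fold change -0.41, edgeR adjusted p = 0.0291), and in the differentiated keratinocyte list Krt78 (-0.37, adjusted p = 0.0441), all 3 lower in DT without overlap. Most of the Langerhans sum came from Cd74, Epcam, Mfge8 and H2-Ab1, and Itgax stood at 0.18 (adjusted p = 0.637). The smooth muscle and pericyte sum was mostly Cspg4 (36.2 CPM in DT, 37.4 CPM in PBS). The endothelial sum was mostly Pecam1 (4.53 CPM in DT, 7.28 CPM in PBS, log2 fold change -0.67), with Vwf going the other way (0.29). The part of these cells in the values of the listed genes was not tested.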

How the data were processed

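The 12 libraries were made from epithelium lifted off the tongue with dispase and then treated with collagenase and DNase; the kit was a stranded mRNA kit, per the labels' protocols. The submitters' processing notes name cutadapt 2.10, TopHat2 2.1.1, HTSeq 2.01, DESeq2 1.36.0 and build GRCm39. The annotation and strand setting are not given in the sources used here. Raw whole-number counts per gene were deposited by the authors. They also deposited, for 20540 genes, a normalized signal (the count over a size factor), which was checked against the counts and entered no test. Of 55414 genes 6250 had blank counts, and 0 columns belonged to no sample.

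Groups and replicate numbers came from the sample titles. Low genes were removed by filterByExpr (minimum count 10) in edgeR 4.0.16 under R 4.3.3, libraries were scaled by TMM, and DT was compared with PBS by the two-sided quasi-likelihood F test. Benjamini-Hochberg adjustment ran over 14231 genes, and a gene's adjusted p comes from this fit unless DESeq2 (1.42.0) is named. Standard errors (SE) are the log2 fold change over the root of F. Correlations used log2 CPM with a prior count of 2. The fit was also run on simulated counts drawn from its own model with independent samples, so that run is no check of the fit on these data. Replicates differed by more than sampling noise (chi-square over its degrees of freedom of 6.81 to 61.7), so each was counted as 1 sample; whether any share a mouse is not known. Floors cover counting error only, and the labels name no molecular identifiers.

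Named pathway genes were those past the threshold and the 3 with the highest mean CPM in each role group. The members, lists, tests and alternatives were chosen with earlier results of these data known. Alternatives were other scalings, no filter, DESeq2, a replicate block, a principal component as covariate and leaving out each sample.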

Additional observations from a re-analysis of the deposited data

Results flagged for a closer look

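Over 72 groups of 6 samples that were examined, 3 held a sample far from the others, each time PBS 5; chance flags about 1 in 20. Smad7 was at 33.3 CPM in PBS 5 and at 27.1 to 29.4 CPM in the other PBS samples. Dlx3 was at 264 CPM in PBS 5, against 211 to 225 CPM. The summed markers of differentiated tongue keratinocytes were at 163000 CPM in PBS 5, against 130000 to 138000 CPM.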

How the results depend on the processing

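Settings with their counts of all genes past the threshold (higher, lower in DT) were as follows, beside 185 (63, 122). Library size alone gave 553 (484, 69), DESeq2 596 (200, 396), the principal component as covariate 1257 (457, 800) and the replicate block 8 (1, 7). The component was drawn from these same values with group means removed. It can lower the spread that a fold change is judged by but can hardly move the fold change. The share of calls that were higher in DT was 34.1%; it was 47.9% under upper quartile scaling and 87.5% under library size alone, which moved the median of all genes to 0.11. On that setting the medians were 0.11 for the listed genes and 0.13 for the other pathway genes. Leaving out 1 sample gave 47 to 263 calls (17 to 103 higher, 30 to 160 lower), and was at least 1.5 times lower without DT 2 (101), DT 3 (73), DT 4 (82), DT 5 (47), DT 6 (111), PBS 1 (98), PBS 2 (71), PBS 3 (67) or PBS 4 (115).

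Of the listed genes 2 were past the threshold; 0 were with the replicate block, 4 with the principal component and 1 to 3 when 1 sample was left out. As this comparison served to choose the list, these counts describe the settings and support no call. The log2 fold change was 0.40 to 0.58 for Nbl1 and 0.38 to 0.52 for Id3 over 19 alternatives. Bmp2 (-0.25 to -0.11) and Bmp4 (-0.29 to -0.15) were negative in all 19, Id2 positive (0.26 to 0.41). Fst, Smad6 (-0.04 to 0.10) and Smad7 (-0.03 to 0.11) changed sign in some. Bmp2 was nearest to 0 with library size alone (-0.11). The TMM factors that this setting leaves out averaged 1.04 in DT and 0.965 in PBS (two-sided exact permutation p = 0.0238). Small fold changes thus depend on the scaling. Over fits that left out 1 sample the median of the listed genes was -0.02 to 0.04 and that of the other pathway genes 0.00 to 0.03. Other pathway genes lower in DT numbered 1, against 0 with library size alone, 0 with the replicate block, 3 with DESeq2, 6 with the principal component and 0 to 1 with 1 sample left out. Those higher numbered 0, against 1 with the principal component (Tgfbr3) and 0 to 1 with 1 sample left out (Hey1, without DT 1); both names were chosen after their values were seen.

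Differences that changed sign were all far from the threshold. With library size alone the fibroblast sum differed by 11.8 CPM, the basal keratinocyte sum by 564 CPM and Bambi by 0.011. With 1 sample left out, the basal keratinocyte sum differed by -398 to 0.312 CPM, the smooth muscle and pericyte sum by -1.26 to 1.18 CPM, Bmp6 by -0.052 to 0.092 and Bambi by -0.136 to 0.0055 (both log2). The causes were not tested. Whether equal replicate numbers mark a pairing or a batch was not stated in the titles. Deviations of same-numbered samples correlated at -0.33 to 0.11, and 0 of 6 DT samples correlated best with their own number. Such correlations cannot exclude a pairing.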
